A study of Homo sapiens with 10 samples.

Results

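H4K16ac, the acetylation of lysine 16 in the tail of histone H4, was compared by CUT&RUN between astrocytes after 2 days of doxycycline (2d-Dox) and the same line without it (noDox). In CUT&RUN, permeabilised cells are incubated with an antibody that recruits a nuclease, and the DNA cut free around the target is sequenced. The cells were immortalized human astrocytes (IHA), a fetal line carrying SV40, in which doxycycline at 1 µg/ml switches on IDH1-R132H. The labels give the genotype IDH1-R132H to the 2d-Dox cells and WT IDH1 to the noDox cells. Each side is 1 library of 200000 cells, so 2 of the 10 samples of the series are compared here, and the H3K9ac and H3K27ac libraries of the same cells are set beside them. All values describe these libraries. There are no replicates, and no test between the groups was possible. Intervals of single ratios and shares cover counting error only. Those of medians treat regions or pairs from 1 library a side as independent. No interval covers a difference between libraries. Doxycycline was not given to cells lacking IDH1-R132H in any library, so the agent, the time in culture and the mutant enzyme cannot be told apart. The sources name no spike-in, so a change of the total amount of H4K16ac cannot be told apart from library size.

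H4K16ac is written mainly by the acetyltransferase KAT8 (MOF) and removed by sirtuin deacetylases, and it loosens the packing of nucleosome fibres. It lies over gene bodies and other open chromatin in wide, shallow stretches, unlike H3K27ac, which peaks at active promoters and enhancers. IDH1-R132H, frequent in diffuse glioma, turns 2-oxoglutarate into 2-hydroxyglutarate, an inhibitor of histone and DNA demethylases that use 2-oxoglutarate.

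The members are the islands in the authors' 2 H4K16ac lists on chromosomes 1 to 22. An island is a stretch where antibody reads exceeded those of a control library made from noDox cells with the HRP-linked secondary antibody alone (HRP). There were 92570 islands in 2d-Dox and 109591 in noDox, of 771215 in the 9 lists of the series. They held 5370548 antibody reads in 2d-Dox and 4192346 in noDox, and the libraries were 3.08 and 2.53 times the size of the HRP library. Divided by these sizes, the 2d-Dox islands held 1.05 times the reads of the noDox islands. Overlapping islands of the 2 lists were merged into 134056 regions, after 2d-Dox counts had been scaled to noDox depth and the 852 islands (0.920%) then under the noDox floor dropped. The extents of islands were not called again, so that 330.02 Mb remained covered in 2d-Dox, against 275 Mb in noDox, and the lists were not matched in called length. The line was not checked against astrocyte marker genes, since the gene annotation used here is on another genome build than the files.

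H4K16ac islands in 2d-Dox were fewer and wider than in noDox. They covered 11.5% of the autosomes in 2d-Dox and 9.54% in noDox, with a median island length of 3000 bp and 2000 bp. Islands of at least 10 kb made up 2.81% of the 2d-Dox list (2603 islands) and 0.568% of the noDox list (623 islands). The longest island spanned 43200 bp in 2d-Dox and 39800 bp in noDox. Reads were thinner in the wider islands: per kb and unit of library size there were 5.23 in 2d-Dox and 6.02 in noDox. HRP reads per kb of island were 1.89 in 2d-Dox and 1.85 in noDox. Both values come from the same HRP library of noDox cells, so they show only that both island sets lay over similar control density. The background of 2d-Dox cells was not measured, since no control library was made from them. A deeper library lets weaker stretches pass the caller, and the part of library size in the wider 2d-Dox islands was not tested.

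The share of H4K16ac island reads differed between the lists in an order along the chromosomes. Gene-poor bands held a larger share in 2d-Dox than in noDox, and gene-dense bands and bands near chromosome ends a smaller one. Staining chromosomes with Giemsa gives a pattern of bands; light bands are mostly gene-rich and GC-rich, dark bands gene-poor and AT-rich. The share of each library's island reads was compared over the 659 of 811 autosomal bands with at least 1000 reads in both lists. The log2 ratio of the shares had an SD of 0.39 over bands for H4K16ac, beside 0.094 for H3K27ac and 0.14 for H3K9ac over the same bands. A share was at least 2-fold higher in 2d-Dox in 1 band (0.152% of those compared) and at least 2-fold lower in 14 (2.12%). The exact 95% interval of the ratio excluded 0 in 581 bands, of which 297 had a higher share and 284 a lower one in 2d-Dox. This interval counts reads as independent and covers no difference between libraries. The shares sum reads over islands called separately at unlike depth, and over bands their log2 ratio and that of the share of called length had a Pearson's r of 0.99. The band ratios therefore describe how much of each band was called, and the part of depth in them could not be measured without calling the islands again.

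The darkest bands (gpos100) had a median log2 ratio of 0.34, with quartiles of 0.22 and 0.60, and 65 of these 69 bands were higher in 2d-Dox. The next class (gpos75) had a median of 0.24, and 62 of its 76 bands were higher. In both dark classes the share was thus higher in most bands. Light bands (gneg) had a median of -0.091, and 206 of 339 were lower in 2d-Dox. The palest grey class (gpos25) had a median of -0.17, and 53 of 71 were lower. In sums of reads, the gpos100 bands held 12.0% of the island reads in 2d-Dox and 9.26% in noDox, and the light bands held 52.2% and 55.9%. HRP reads per kb of island in gpos100 bands were 1.84 in 2d-Dox and 1.77 in noDox, and in light bands 1.90 and 1.86.

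**Figure D1:**
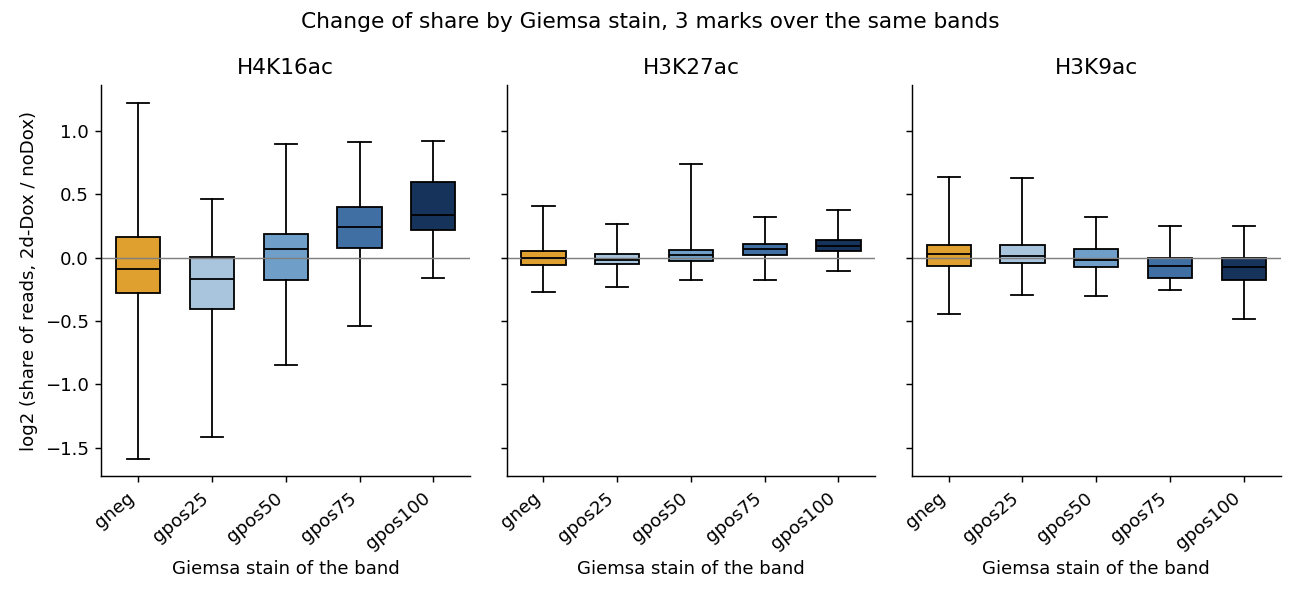
Log2 ratio of the share of island reads, 2d-Dox over noDox, for bands grouped by Giemsa stain, in 3 panels for H4K16ac, H3K27ac and H3K9ac; boxes span the quartiles, the line is the median and whiskers reach the lowest and highest band. The H4K16ac boxes climb from a median of -0.17 in gpos25 to 0.34 in gpos100, and the boxes of the other marks lie nearer 0.

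The light bands less the darkest bands differed by -0.43 in median log2 ratio for H4K16ac. For H3K27ac the difference was -0.092, with medians of -0.0022 in light and 0.090 in the darkest bands. For H3K9ac it was 0.0995, with medians of 0.025 in light and -0.074 in the darkest bands. H3K9ac in the same cells thus ran the other way along the stain classes, and H3K27ac the same way with a smaller difference. Over the 659 bands, Spearman's rho with the H4K16ac ratios was 0.71 for the H3K27ac ratios and -0.33 for the H3K9ac ratios. The H4K16ac library at 7 days, over the same noDox library, had medians of -0.058 in light and 0.28 in the darkest bands. At 7 days H3K27ac had 0.0015 and -0.13, the reverse of its order at 2 days, and H3K9ac 0.015 and 0.036. Library sizes relative to HRP were 3.15 in 2d-Dox and 3.98 in noDox for H3K27ac, and 4.17 and 3.05 for H3K9ac. The H3K27ac list of 2d-Dox was thus the shallower one, unlike that of H4K16ac, and the part of depth was not tested. Whether the marks differ cannot be tested with 1 library each.

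Gene density showed the same order more finely. Protein-coding genes per band were counted in RefSeq on GRCh38.p14 and joined to the hg19 bands by band name, since no coordinates were moved between builds. Band edges differ between the builds, and the largest change of a band's length was 1100%. The bands were ranked by genes per Mb and cut into 5 groups of 131 or 132. In the group poorest in genes, at most 2.89 per Mb, the median log2 ratio of the share was 0.27, and 103 of 132 bands were higher in 2d-Dox. The median was 0.17, 0.058 and -0.10 in the next groups. In the group richest in genes, from 11.6 to 50.6 per Mb, it was -0.31, and 119 of 132 bands were lower. The gene-dense group held 21.5% of island reads in 2d-Dox and 26.9% in noDox, and the gene-poor group held 16.4% and 13.2%. Over the 659 bands, Spearman's rho between genes per Mb and the log2 ratio was -0.59 and Pearson's r -0.59. For the H3K27ac ratios over the same bands rho with genes per Mb was -0.54, and for the H3K9ac ratios 0.46. Within the 20 chromosomes with at least 10 bands compared, rho was below 0 in all 20, from -0.83 to -0.075. These are descriptions over bands that share the same 2 libraries; gene density and base composition vary together along chromosomes, base composition was not analysed here, and their parts cannot be told apart.

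**Figure D2:**
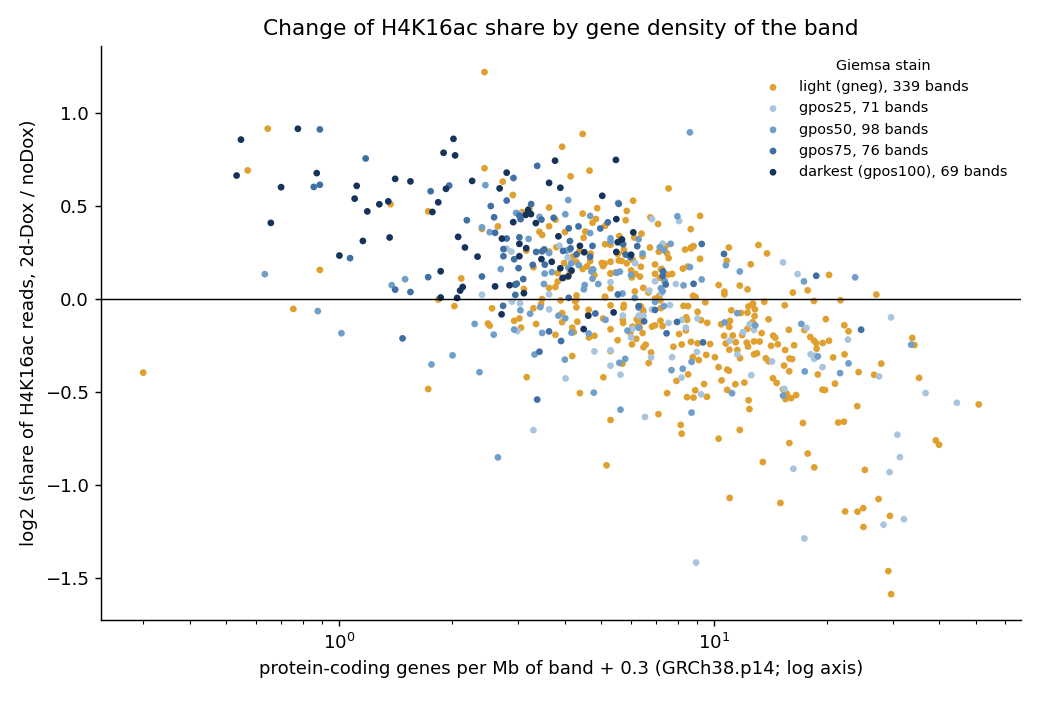
Each point is a band in 1 of 5 stain classes, coloured by class, with protein-coding genes per Mb plus 0.3 on a log axis and the log2 ratio of its share of H4K16ac reads, 2d-Dox over noDox, on the vertical axis. Points fall from above 0 among gene-poor bands to below 0 among gene-dense bands, with the lowest at -1.59.

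The called length of islands shifted as their reads did. In the gene-poor group, islands covered 9.31% of the bands in 2d-Dox and 6.17% in noDox, and in the gene-dense group 15.3% and 15.7%. Islands per Mb in the gene-dense group numbered 42.7 in 2d-Dox and 59.7 in noDox, while in the gene-poor group they numbered 27.03 and 26.6. So the gene-dense bands had fewer islands in 2d-Dox at near equal coverage, and the gene-poor bands had as many islands over more sequence. Reads per kb of island changed little from band to band, with an SD of their log2 ratio of 0.050 over bands, and a median of -0.20 in the gene-poor group and -0.22 in the gene-dense group.

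Counts of single regions varied with the bands they lay in. Among regions called in 1 list only, there were 1.09 2d-Dox regions for each noDox region in the gene-poor group (8633 and 7953 regions) and 0.462 in the gene-dense group (5344 and 11573). By stain, the number of 2d-Dox regions per noDox region was 1.18 in gpos100 bands and 0.654 in light bands. Pairs of islands of nearly equal length in the 2 lists had a median log2 ratio of -0.029 in the gene-poor group (-0.066 to 0.0022, 540 pairs) and -0.17 in the gene-dense group (-0.19 to -0.15, 1363 pairs). These pairs leave out islands whose called length differed, so the smaller differences among them follow in part from the choice of pairs.

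Distance from the chromosome end ordered the bands as well. Bands centred within 5 Mb of an end had a median log2 ratio of -0.42, and 37 of 43 were lower in 2d-Dox. Between 5 and 10 Mb the median was -0.25, with 42 of 50 lower. Beyond 80 Mb it was 0.26, with 46 of 61 higher. Bands near the ends also held more genes, 12.4 per Mb within 5 Mb against 5.97 beyond 80 Mb. For H3K27ac the medians were -0.074 within 5 Mb and 0.063 beyond 80 Mb, and for H3K9ac 0.13 and -0.035.

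By chromosome, all 11 bands compared on chromosome 19, the most gene-dense autosome at 25.8 genes per Mb of those bands, had a lower share in 2d-Dox, with a median of -0.93. Together they held 0.628% of island reads in 2d-Dox and 1.22% in noDox. On chromosome 22, 8 of 9 bands were lower (median -0.48), on chromosome 17, 17 of 22 (-0.35), and on chromosome 20, 14 of 16 (-0.30). On the other side, 14 of 16 bands of chromosome 13, the poorest in genes at 2.45 per Mb, had a higher share (median 0.35), as did 39 of 45 on chromosome 4 (0.30). Chromosome 4 held 7.06% of island reads in 2d-Dox and 5.79% in noDox, and chromosome 13 held 1.88% and 1.43%.

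The 8 bands with the highest ratios of share had 0.247 to 4.17 genes per Mb, except 7p15.2. First was 4q32.2 (hg19 chr4:161800001-164500000), a light band that holds NPY1R and NPY5R, receptors for neuropeptide Y, and FSTL5. It had 3990 reads in 76 islands in 2d-Dox and 1336 reads in 40 islands in noDox, a log2 ratio of the share of 1.22 (1.13 to 1.31). Islands covered 9.79% of it in 2d-Dox and 3.52% in noDox. Next came 13q21.32 (chr13:65700001-68600000), whose 1 protein-coding gene is PCDH9, a protocadherin of the nervous system. It had 10933 reads in 2d-Dox and 4521 in noDox, and the islands covered 25.4% and 10.9% of the band. Its log2 ratio was 0.92 (0.87 to 0.97). At 4q28.3 (chr4:131100001-139500000), which holds PCDH10, PCDH18 and the cystine transporter gene SLC7A11, there were 18946 reads in 2d-Dox and 7837 in noDox, and at 4p15.1 (chr4:27700001-35800000), which holds PCDH7, 6798 and 2928. The log2 ratios were 0.92 and 0.86. Genes are named here only as lying in the band, and no island was assigned to a gene.

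The others were 13q21.31 (0.91), 4q34.2 (0.89), which holds the neuronal membrane glycoprotein gene GPM6A, and 6q16.1 (0.86), which holds EPHA7 and POU3F2, a neural transcription factor. The exception in gene density, 7p15.2 (chr7:25500001-28000000; 8.33 genes per Mb), carries the HOXA homeobox genes, which set position along the body axis. It had 3058 reads in 42 islands in 2d-Dox and 1282 reads in 39 islands in noDox, a log2 ratio of 0.90 (0.80 to 0.99). Islands covered 8.0% of 7p15.2 in 2d-Dox and 3.34% in noDox. In these 8 bands the H3K27ac ratios of share lay between 0.058 and 0.37 and the H3K9ac ratios between -0.45 and 0.061. Their H4K16ac reads per kb of island were lower in 2d-Dox in all 8, from -0.29 to -0.13.

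The 8 bands with the lowest ratios lay on 4 chromosomes and had 17.1 to 31.9 genes per Mb, except 1p36.32 with 8.67. Lowest was 19p13.3 (chr19:1-6900000), with 203 protein-coding genes, among them STK11, a kinase upstream of AMPK, DOT1L, an H3K79 methyltransferase, and SIRT6, a deacetylase. It had 3363 reads in 85 islands in 2d-Dox and 7879 reads in 252 islands in noDox, a log2 ratio of the share of -1.59 (-1.64 to -1.53). Islands covered 3.11% of 19p13.3 in 2d-Dox and 7.41% in noDox, with HRP reads per kb of 1.55 and 1.56. At 11p15.5 (chr11:1-2800000), which holds the imprinted IGF2 and KCNQ1 genes, there were 1154 reads in 26 islands in 2d-Dox and 2481 in 75 islands in noDox, a ratio of -1.46 (-1.56 to -1.36). At 1p36.32 (chr1:2300001-5400000), which holds PRDM16 and TP73, there were 1051 reads in 23 islands in 2d-Dox and 2189 in 65 in noDox, a ratio of -1.42 (-1.52 to -1.31). In each of these 3 bands both islands and reads were fewer in 2d-Dox.

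The other bands were 9q34.2 (-1.29), 1p36.33 (-1.22), 19p13.2 (-1.21), 19q13.12 (-1.18) and 19p13.11 (-1.16). Zinc finger symbols (ZNF or ZFP), many of them for repressors of transposable elements, are carried by 40 of 160 genes at 19p13.2 and 29 of 86 at 19q13.12, but by 5 of 203 at 19p13.3, 4 of 111 at 19p13.11 and none in the other 4 bands, beside 2.10% of the genes in all bands compared. There were 3091 reads in 2d-Dox and 5590 in noDox at 19p13.2, and 1347 and 2387 at 19q13.12. In the 8 bands the H3K27ac ratios were also below 0, from -0.22 to -0.12, and the H3K9ac ratios were above 0, from 0.059 to 0.28. H4K16ac reads per kb of island were lower in 2d-Dox here too, from -0.37 to -0.14. For both sets of bands the H4K16ac library at 7 days had, over the same noDox library, ratios of 0.65 to 0.92 in the bands first named and -0.60 to -0.20 in these; it shares noDox with the ratios above and does not count as a second measurement of them.

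Shares were also compared in windows of 1 Mb. Of 2897 windows, 1488 had at least 1000 reads in both lists, and the SD of the log2 ratio of share was 0.40. The highest window lay at 13q21.32 (chr13:67000001-68000000), with 4850 reads in 2d-Dox and 1746 in noDox, a ratio of 1.13 (1.05 to 1.21). Next in order were windows at 12q21.33 (1.12), 1q31.1 (1.09), 4q28.1 (1.09) and 7q21.11 (1.08). The lowest lay at 14q32.33 (chr14:105000001-106000000), with 1068 reads in 2d-Dox and 2343 in noDox, a ratio of -1.48 (-1.59 to -1.38). Above it came windows at 9q34.2 (-1.37), 4p16.3 (-1.36), 9q34.3 (-1.29) and 19p13.3 (-1.27), so that all 5 lay in bands at or near the tips of chromosome arms.

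A large part of the islands of each list had no counterpart in the other. Of the 91718 depth-matched 2d-Dox islands, 59.9% (59.6 to 60.2) overlapped a noDox island by at least 1 bp, and they held 70.3% of the 2d-Dox reads. Of the noDox islands, 55.8% (55.5 to 56.1) overlapped a 2d-Dox island, with 65.1% of the reads. Merging gave 48851 regions with an island in both lists, 36781 in 2d-Dox only and 48424 in noDox only. Regions in 1 list only were thin, with a median of 38 reads in 2d-Dox over 2600 bp and of 26 reads in noDox over 1800 bp. In 6537 shared regions 1 island in 2d-Dox spanned several in noDox (14366 noDox islands), and in 2457 regions 1 noDox island spanned several in 2d-Dox. Several islands in noDox thus lay under 1 in 2d-Dox more often than the other way round.

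Absence from a list went with low reads. Of the 2d-Dox regions with 20 to 50 reads expected in noDox, 54.1% had no noDox island, and of the noDox regions with as many expected in 2d-Dox, 61.8% had no 2d-Dox island. At 100 to 150 expected reads the shares were 5.19% and 6.37%, and at 200 to 300 they were 0.103% (1 of 968) and 0.371% (4 of 1078). Over all regions with at least 100 expected reads, 3.34% (2.94 to 3.78, 242 of 7237) of the 2d-Dox regions lacked a noDox island, and 4.31% (3.89 to 4.76, 365 of 8468) of the noDox regions lacked a 2d-Dox island. From 300 to 500 expected reads, 0 of 315 2d-Dox regions (exact upper bound 1.16%) lacked a noDox island, and 2 of 410 noDox regions (0.488%) lacked a 2d-Dox island.

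**Figure D3:**
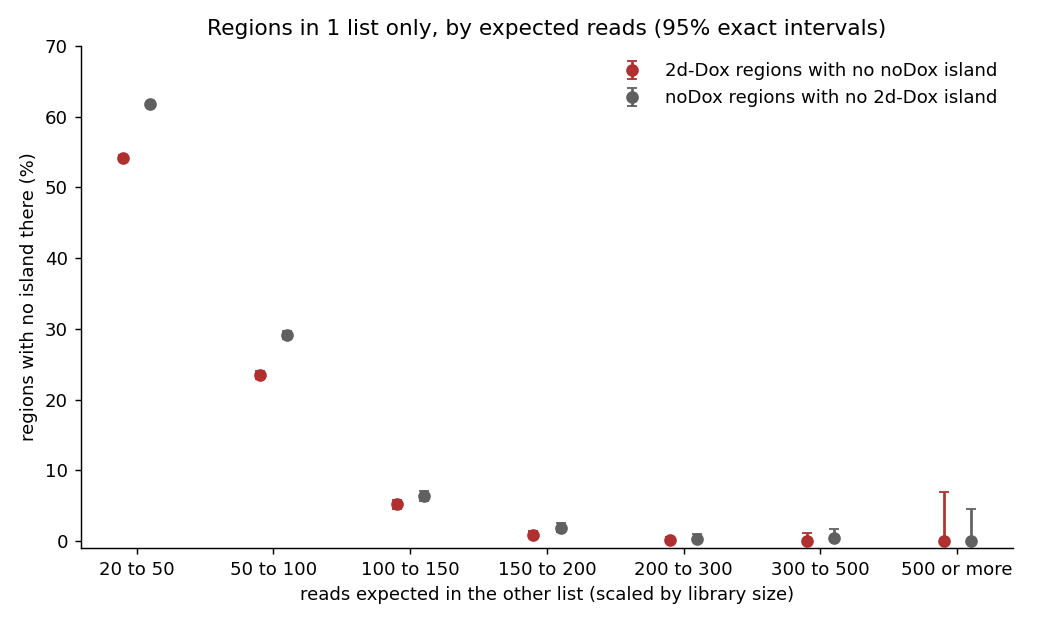
Percent of regions with no island in the other list, against the reads expected there from library size, for 2d-Dox regions (red) and noDox regions (grey), with exact 95% intervals. Both series drop from over 50% at 20 to 50 expected reads to under 1% from 200 reads on, and the noDox points lie above the 2d-Dox points in every class up to 500 reads.

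The regions in 2d-Dox only with the most reads were single islands of 13000 to 15200 bp. At 12p11.21 (chr12:30798401-30811600) there were 251 reads in 2d-Dox and no island in noDox, where 206 reads would be expected. The next were 3p21.31 (chr3:47679601-47693800) with 239 reads in 2d-Dox, 2q31.1 (chr2:175314601-175329600) and 5q12.1 (chr5:61817001-61832200) with 219 each, and 5q22.3 (chr5:114610201-114623200) with 210. An H3K9ac island was listed in 2d-Dox at 4 of these 5 regions and in noDox at all 5, while H3K27ac had none in 2d-Dox and 1 in noDox, at 3p21.31. So these stretches already held H3K9ac islands in noDox cells. Of all 36781 regions in 2d-Dox only, 44.8% had an H3K9ac island in 2d-Dox and 40.2% in noDox. For H3K27ac the shares were 27.3% and 28.5%. Those regions had a median span of 2600 bp, and the 5 were not compared with regions of like width. HRP reads per kb were 3.66 at 3p21.31, 3.95 at 5q12.1 and 4.08 at 5q22.3, against 1.89 over the whole 2d-Dox list. They were 2.20 at 12p11.21 and 2.33 at 2q31.1. In counts, HRP had 52 reads at 3p21.31, 60 at 5q12.1 and 53 at 5q22.3, beside 29 at 12p11.21 and 35 at 2q31.1. These counts are before scaling to a 2d-Dox library 3.08 times the size of the HRP library. The 2d-Dox islands had a median fold over HRP of 2.9985 after division by library size. The ranking by reads was not corrected for HRP, so it does not order these regions by enrichment over the control. The part of the control in these regions was not tested.

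Among regions in noDox only, 10q11.22 (chr10:47114001-47128800) had no island in 2d-Dox, where 344 reads would be expected, and 282 reads in noDox. It also had 6.69 HRP reads per kb, against 1.85 over the whole noDox list. In counts, HRP had 99 reads there, before scaling to a noDox library 2.53 times its size. The noDox islands had a median fold over HRP of 3.75 after division by library size. Neither the ranking by reads nor the expected reads were corrected for HRP. At 3p25.1 (chr3:13541601-13558800) there were 275 reads in noDox, at 15q26.3 (chr15:99968601-99984600) 219, and at 17p11.2 235 (chr17:17438801-17452400) and 196 (chr17:18059401-18068000). The 17p11.2 regions had 59 and 54 HRP reads, or 4.34 and 6.28 per kb. Thus 3 of these 5 regions lay where the control was high. The part of the control in their absence from 2d-Dox was not tested. H3K27ac islands were listed in 2 of the 5 in 2d-Dox and 4 in noDox. Of all 48424 regions in noDox only, 31.5% had an H3K27ac island in 2d-Dox and 34.0% in noDox. Those regions had a median span of 1800 bp, against 8600 to 17200 bp for the 5, and width was not matched. At 3p25.1 the H3K27ac islands held 176 reads in 2d-Dox and 493 in noDox, in libraries of size 3.15 and 3.98.

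Ratios were taken over the 13786 shared regions with at least 50 reads in both lists, counting 2d-Dox reads after scaling to noDox depth. The ratios are of unscaled reads summed over a region's islands and divided by library size. Their median was 0.10 (0.092 to 0.11) on the log2 scale, with quartiles of -0.23 and 0.45. It was 0.022 without depth matching and 0.030 when scaled by reads in islands. In 735 regions (5.33%) the ratio was at least 2-fold higher in 2d-Dox and in 265 (1.92%) at least 2-fold lower; with no islands dropped these counts were 736 and 491. Per kb of island the picture turned: the median was -0.17 (-0.17 to -0.16), 1 region was at least 2-fold higher and 74 at least 2-fold lower. Neither measure is free of the calling of islands, since a sum grows with the length that passed and a density falls when weaker flanks pass. The regions at least 2-fold higher had a median called length of 11600 bp in 2d-Dox and 4200 bp in noDox, and those at least 2-fold lower of 4800 bp and 9200 bp. Their median ratios per kb were -0.12 and -0.30.

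**Figure D4:**
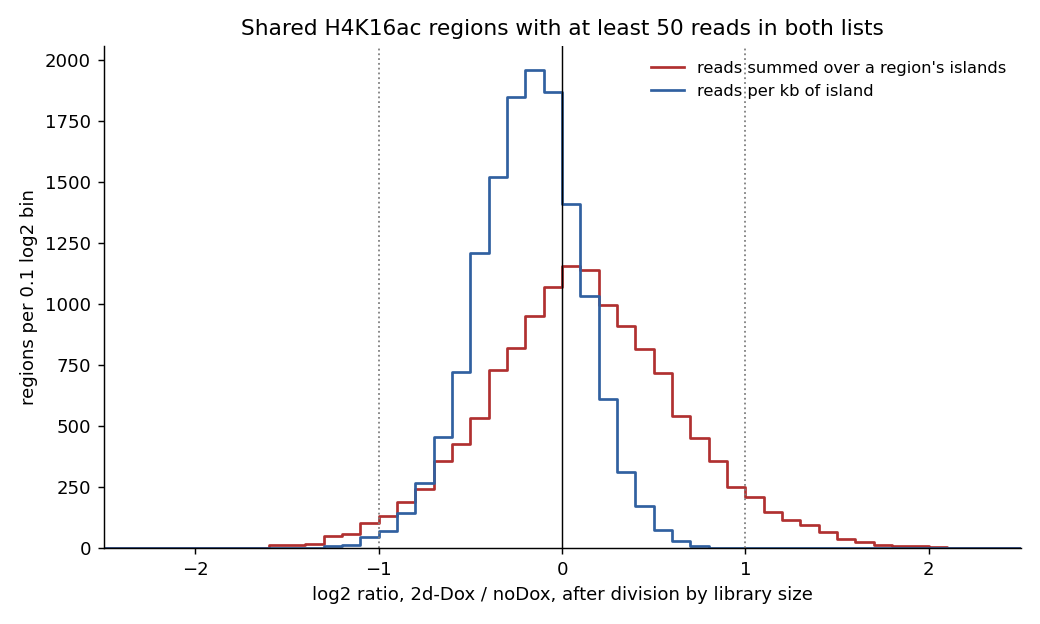
Number of shared regions per 0.1 of log2 ratio, 2d-Dox over noDox, for reads summed over islands (red) and reads per kb of island (blue), among 13786 regions; dotted lines mark 2-fold. The summed ratios spread on both sides of their median of 0.10 and the ratios per kb sit in a narrower peak around -0.17.

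Ratios were also taken where both lists called nearly the same stretch. Islands that overlapped by at least 80% of each length formed 1321 pairs with at least 50 reads in both (2d-Dox reads after scaling). Their median log2 ratio was -0.082 (-0.098 to -0.062), with a range of -0.97 to 0.77. None was past 2-fold (0% each way), but the pairs were kept for their like length, which leaves out regions whose called length differed, such as those past 2-fold above. The exact interval lay above 0 in 61 pairs and below 0 in 142. The highest pair was at 4q27 (chr4:123139601-123145600), with 110 reads in 2d-Dox and 53 in noDox, a ratio of 0.77 (0.28 to 1.27). The lowest was at 11q25 (chr11:134108601-134113800), with 61 reads in 2d-Dox and 98 in noDox, a ratio of -0.97 (-1.45 to -0.49). The other 4 pairs named each way lay between 0.69 and 0.76, and between -0.89 and -0.84.

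The 10 shared regions with the highest ratios were each 1 wide island in 2d-Dox, and 1 or 2 shorter islands in noDox. They held 266 to 344 reads over 13800 to 20000 bp in 2d-Dox and 52 to 65 reads over 2400 to 4800 bp in noDox. The first was at 18p11.32 (chr18:2777401-2796400), with 344 reads in 1 island of 19000 bp in 2d-Dox and 57 reads in 2 islands of 4000 bp in all in noDox. Its log2 ratio was 2.31 (1.90 to 2.74), and 0.061 per kb. At 1q43 (chr1:243542401-243562400) there were 338 reads over 20000 bp in 2d-Dox and 57 over 3200 bp in noDox, a ratio of 2.28 (1.87 to 2.71); per kb it was -0.36. In both, the called length thus differed by nearly as much as the reads or more.

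Further regions of this group lay on chromosome 14. At 14q24.1 (chr14:68341401-68359800) there were 337 reads in 2d-Dox and 57 in noDox, a ratio of 2.28 (1.87 to 2.71), and the ratio per kb, 0.34, was the highest of the 10. At 14q21.2 (chr14:45464001-45482800) there were 311 and 53 reads, a ratio of 2.27 (1.84 to 2.72). The rest lay at 3q26.2, 14q22.3, 13q22.1, 6q23.2, 21q21.3 and 10q26.12, with ratios from 2.00 to 2.09. Per kb of island 6 of the 10 were higher in 2d-Dox, within -0.45 to 0.34.

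H3K9ac islands were listed at all 10 of these regions in both 2d-Dox and noDox, but H3K27ac islands at 2 of them in 2d-Dox and 1 in noDox. At 3q26.2 (chr3:169686801-169705200) H3K27ac had 480 reads in 2d-Dox and 648 in noDox, or 153 and 163 per unit of library size. H4K16ac had 307 reads in 2d-Dox and 59 in noDox there, a log2 ratio of 2.09 after division by library size. At 14q22.3 (chr14:56095201-56109000) H3K27ac had 17.5 reads per unit of library size in 2d-Dox and no island in noDox. H3K9ac had 56.6 and 16.4 per unit of library size. At 21q21.3 (chr21:27115401-27132800) H3K9ac had 100.4 per unit of library size in 2d-Dox and 59.0 in noDox. Among all regions within 2-fold, H3K9ac islands were listed at 92.9% in 2d-Dox and 86.3% in noDox, and H3K27ac islands at 53.3% and 53.9%. The H3K9ac count was thus near that of other regions; for H3K27ac the whole set at least 2-fold higher had 44.9% and 45.2%, nearer to the other regions than the 10 were.

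The 10 regions with the lowest ratios held 64 to 134 reads over 2800 to 7800 bp in 2d-Dox and 171 to 329 reads over 7400 to 20200 bp in noDox. The lowest was at 11q13.5 (chr11:76792601-76808600), with 78 reads over 6400 bp in 2d-Dox and 234 over 12400 bp in noDox. Its log2 ratio was -1.87 (-2.26 to -1.49), and -0.92 per kb. At 11q13.5 reads were thus also less dense in 2d-Dox. At 9q22.33 (chr9:100888201-100901000) there were 69 reads over 3400 bp in 2d-Dox and 206 over 12800 bp in noDox, a ratio of -1.86 (-2.28 to -1.46); per kb it was 0.050. At 10q22.1 (chr10:71661401-71675200) the reads were 70 in 2d-Dox and 198 in noDox, a ratio of -1.78 (-2.20 to -1.38). The others, at 1p36.12, 4p16.3, 15q26.1, 2p21, 15q22.2, 7q32.3 and 22q13.1, had ratios from -1.70 to -1.58. All 10 lay in gneg or gpos25 bands, which hold 57.4% and 10.6% of the regions within 2-fold; of the 10 regions with the highest ratios 6 lay in gneg bands and none in gpos100 bands.

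H3K27ac islands were listed at 5 of these 10 regions in 2d-Dox and 6 in noDox. They were listed at 66.8% and 71.7% of all regions at least 2-fold lower, and at 53.3% and 53.9% of those within 2-fold. The counts at the 10 were thus near those of other regions. At 1p36.12 (chr1:20922601-20935600) H3K27ac reads per unit of library size were 109 in 2d-Dox and 213 in noDox, at 2p21 (chr2:47234001-47244000) 45.8 and 79.9, and at 22q13.1 (chr22:40810401-40831400) 8.90 and 31.9. At 15q26.1 (chr15:91421601-91436200) no H3K27ac island was listed in 2d-Dox, beside 30.9 in noDox. At 4p16.3 (chr4:2257401-2264800) the values were 79.7 and 109.5. At 11q13.5 they were 20.3 and 24.9. H3K27ac was thus lower in 2d-Dox at all 6 regions with a noDox island, as its median also was over regions within 2-fold (-0.15 on the log2 scale).

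**Figure D5:**
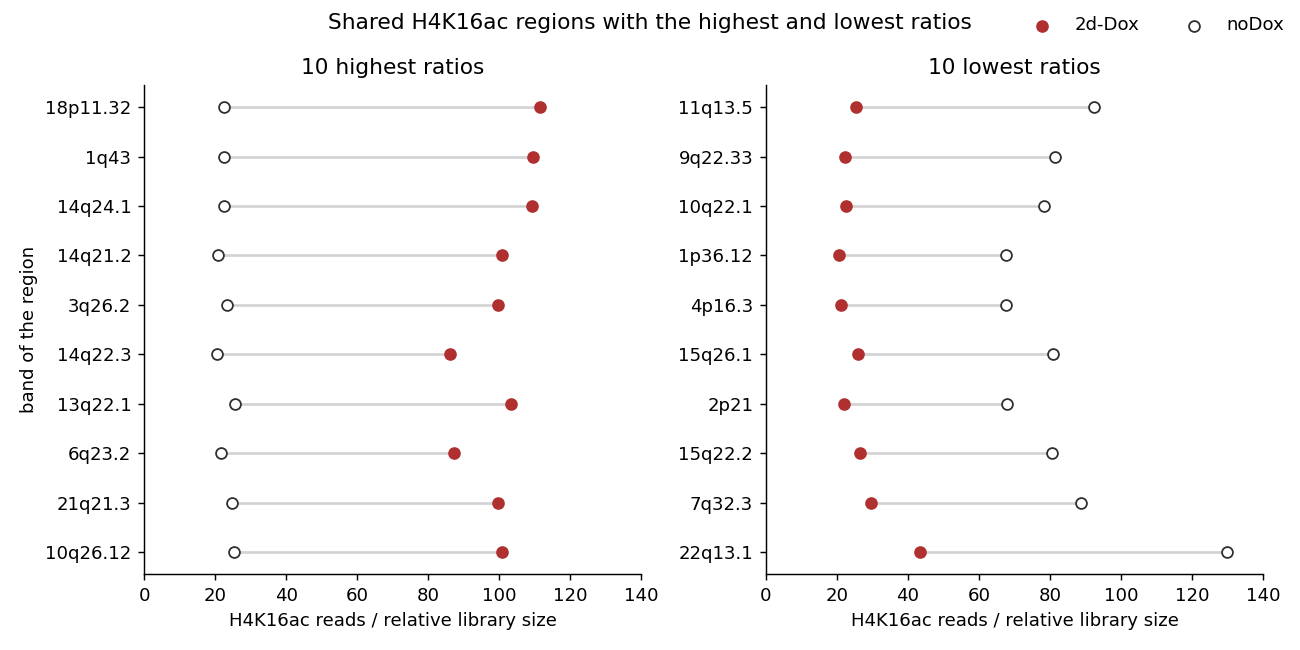
H4K16ac reads divided by relative library size in 2d-Dox (filled) and noDox (open) at the 10 shared regions with the highest ratios (left) and the 10 with the lowest (right), listed by band from the most extreme downwards. Each grey line joins the 2 libraries of 1 region, with 2d-Dox to the right of noDox in the left panel and to its left in the right panel.

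H3K27ac also differed between the whole sets of regions. Of the bases in regions at least 2-fold higher in 2d-Dox, H3K27ac islands covered 16.6% in 2d-Dox and 19.9% in noDox; in regions at least 2-fold lower they covered 30.5% and 41.1%, and in those within 2-fold 25.4% and 30.2%. H3K9ac islands covered similar parts of the 3 sets, 50.6%, 52.7% and 54.9% in 2d-Dox and 44.1%, 46.0% and 48.4% in noDox. The median log2 ratio of H3K27ac was -0.12 (-0.18 to -0.031, 214 regions) in the higher set, -0.27 (-0.37 to -0.15, 118 regions) in the lower set and -0.15 (-0.16 to -0.13, 4345 regions) within 2-fold, among regions with at least 20 H3K27ac reads in both. For H3K9ac the medians were 0.061, 0.042 and 0.045. HRP reads per kb of the merged regions were 2.11 in the higher set and 2.09 in the lower set. Per kb of called island they were 2.22 in 2d-Dox and 1.83 in noDox in the higher set, and 1.88 and 2.21 in the lower set, so the control under the islands was higher where more was called; its part in the ratios was not tested.

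By position, 11.4% of the regions at least 2-fold higher lay in gpos100 bands and 1.89% of those at least 2-fold lower, beside 7.31% of those within 2-fold and 10.1% of all shared regions. Within 10 Mb of a chromosome end lay 7.48% of the higher and 17.4% of the lower regions, beside 11.5% of those within 2-fold. The count of changed regions varied likewise with gene density: in the gene-poor group 94 of 1393 regions were at least 2-fold higher and 9 at least 2-fold lower, and in the gene-dense group 118 and 121 of 3825. Both totals include regions with too few noDox reads to be counted as lower. The median ratio was 0.21 in the gene-poor and -0.018 in the gene-dense group.

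The regions with the most H4K16ac reads stayed within 2-fold. Of 91 regions with a mean of at least 400 reads at noDox depth, all had ratios between -0.66 and 0.97, with a median of 0.11. The 8 with the most reads, picked after the values were seen, included 6 on 17p. The first, at 17p13.1 (chr17:8346601-8453000), had 2397 reads over 100400 bp in 2d-Dox and 1900 over 92200 bp in noDox, a log2 ratio of 0.051 (-0.037 to 0.14). At 17p13.2 (chr17:3936801-3992800) there were 1509 reads in 2d-Dox and 1150 in noDox, a ratio of 0.11 (-0.0044 to 0.22). HRP reads per kb were 3.05 and 3.24 at the 17p13.1 region, and 3.69 and 3.73 at the 17p13.2 region, above the 1.89 and 1.85 of the lists. The 8 ratios lay between -0.26, at 17p11.2 (chr17:17768201-17815200; 891 reads in 2d-Dox and 877 in noDox), and 0.31, at another 17p13.1 region (chr17:10592601-10634800; 988 and 655). All 8 held H3K27ac and H3K9ac islands in 2d-Dox and noDox, but they spanned 40800 to 106400 bp. Of all shared regions, with a median span of 4600 bp, 46.7% held H3K27ac islands in 2d-Dox and 47.7% in noDox. For H3K9ac the shares were 77.6% and 70.8%. Width was not matched.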

How the data were processed

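The submitters' processing notes list hg19 as the build and SICER, Bowtie2 2.3.5.1, deepTools, Picard, FastQC and cutadapt as tools, without their settings. The authors' island lists hold, per the file headers, raw read counts for the antibody (1 count per island) and for HRP, the p-value and FDR of the island, a log2 fold over HRP and a score. The deposited log2 fold equals log2 of antibody over HRP count minus a constant for the list, and this constant gives library size relative to HRP; the deposited p-value was recomputed as a Poisson upper tail, taking 0.25 where HRP had 0 reads. The score as deposited was not used. All lists were called against the same HRP library.

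Coordinates are 1-based on hg19, and 431 2d-Dox and 643 noDox islands outside chromosomes 1 to 22 were left out. For regions, 2d-Dox counts were scaled to noDox depth, and islands under the smallest noDox count or above the largest noDox p-value were dropped; ratios use unscaled counts divided by library size. Band shares use the lists as deposited, with islands placed by midpoint and band positions from circlize 0.4.16 and chromosome lengths from GenomeInfoDb 1.38.1. Gene counts per band use 18973 protein-coding genes of RefSeq on GRCh38.p14, leaving out 153 on alternate or unplaced sequences, and 17797 lay in the bands compared. Of the bands named, none differed in length between builds by more than 18.6%, but the largest change of any band was 1100%. Named regions were the 10 highest and 10 lowest ratios among shared regions with at least 50 reads in both (2d-Dox reads after scaling), the 5 each way among like-length pairs and among regions in 1 list, the 8 bands and the 5 windows each way. Intervals of ratios and shares are exact (Clopper-Pearson) and those of medians order-statistic, all at 95%, and PCR reads are not independent molecules. Code was tested on simulated data and run in Python 3.11.15. Members, lists and rules were chosen with earlier results of these data known. Sequences are not shown, and genes, promoters and the planned cell type markers were not analysed at islands, since no hg19 annotation was used here.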

Additional observations from a re-analysis of the deposited data

How the results depend on the processing

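No paired analysis was possible because each group has 1 library. The noDox share of islands overlapping 2d-Dox, 55.8%, was 45.1% when an overlap had to reach 50% of the island's length, 52.99% at a deposited FDR of at most 0.0001, 56.1% without depth matching and 58.2% with the same number of islands; the 2d-Dox share, 59.9%, was 37.7%, 56.2%, 59.8% and 53.8%. The median log2 ratio of shared regions, 0.10, was reversed per kb of island (-0.17) and in pairs of like length (-0.082). It was 0.030 when scaled by reads in islands, 0.022 without depth matching, 0.14 with islands joined across 2 kb, 0.13 at 20 reads, 0.12 at 100 reads and 0.12 at the stricter FDR. The counts at least 2-fold higher and lower, 735 and 265, became 1 and 74 per kb, 0 and 0 in pairs of like length, 1330 and 659 with joined islands, 5517 and 2712 at 20 reads and 90 and 31 at 100 reads; the lower count was 491 without depth matching. The noDox regions absent from 2d-Dox, 4.31%, were 4.92% when scaled by reads in islands and 0.383% at 200 expected reads, and the 2d-Dox regions absent from noDox, 3.34%, were 2.498% and 0.0750%. The SD over bands, 0.39, was 0.31 over bands with 5000 reads and 0.34 over islands of at most 5 kb. The light less darkest band difference stayed between -0.46 and -0.43 under its 4 alternatives. Including chromosome X changed no region result by more than 1 region. The cause of these shifts was not tested. Depth limits what can be said of regions with under about 100 expected reads, where absence from a list was frequent both ways.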
